A study of Mus musculus with 36 samples.

Results

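The genes described here encode the signaling core of the T cell receptor: the CD3 chains Cd3d, Cd3e and Cd3g, the zeta chain Cd247, the coreceptors Cd4, Cd8a and Cd8b1, and the kinases Lck and Zap70. They were taken by name, and all 9 were found among the 18781 rows of the deposited expression table. The table covers 36 bulk RNA sequencing libraries from wild-type C57BL/6 mice, age- and sex-matched, with tumors of MC38, a colon carcinoma line of mouse. One set of animals had received antibodies to PD1 and CTLA4 at a high dosage (immune checkpoint blockade, ICB) and the other IgG as a control. The tumor and 5 organs (lung, liver, kidney, heart and skeletal muscle) each gave 3 ICB and 3 IgG libraries. All animals, controls included, were tumor-bearing, so no group shows these organs without a tumor. No age is stated in the sources used here.

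The T cell receptor recognizes peptide on MHC molecules through its alpha and beta chains, which carry almost no signaling tail of their own. Cd3d, Cd3e, Cd3g and Cd247 assemble with these chains and supply the tyrosine motifs. CD4 binds MHC class II and CD8, a dimer of Cd8a with itself or with Cd8b1, binds MHC class I. Both bring the SRC-family kinase Lck to the receptor, where it phosphorylates the CD3 and zeta motifs, and the SYK-family kinase Zap70 then docks on them. PD1 and CTLA4 restrain this signaling or its costimulation, which is why these genes are a first place to look for T cells after ICB.

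Between 19005189 and 25512980 reads per library were recovered from the table, and expression is given as FPKM, reads scaled by the authors for exon length and for library size. Every defining gene of the 5 organs had a mean above 1 FPKM in its own organ. The tumor instead had 6 of 6 epithelial genes (4 keratins, Epcam and Cldn4) under a mean of 1 FPKM, with a summed level of 0.332 to 1.38 FPKM, while 6 cell cycle genes summed to 136 to 176 FPKM. Tumor ICB replicate 2 stood apart by its skeletal muscle genes, which summed to 352 FPKM against 4.03 to 16.5 in the other 5 tumor libraries. The labels do not state that replicates are different animals, and the p-values therefore cover the spread of these libraries, technical spread included. In bulk tissue, fewer T cells and less of an RNA per T cell cannot be told apart. Whether T cells or other cells made a given transcript was not measured.

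The genes of the receptor were highest in lung and low elsewhere. Their summed level was 8.58 to 28.2 FPKM in the 6 lung libraries, 4.03 to 8.50 in tumor and 3.69 to 9.62 in liver. Without Zap70 the liver sum was 0.892 to 2.93 FPKM, and the tumor sum 3.70 to 7.72. All 9 genes summed to 1.10 to 2.68 FPKM in kidney, 0.348 to 2.51 in muscle and 0.472 to 1.21 in heart. Of 54 single values per tissue, 42 reached 1 FPKM in lung, 11 in tumor, 6 in liver and 0 in kidney, muscle and heart, and the 6 liver values were all Zap70. Lung had the highest mean for 8 of 9 genes, and the exception was Zap70. The low values rest on few reads: the 9 genes together took 723 to 2944 reads in a lung library, 413 to 775 in a tumor library, and 31 to 64 in a heart library.

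**Figure D1:**
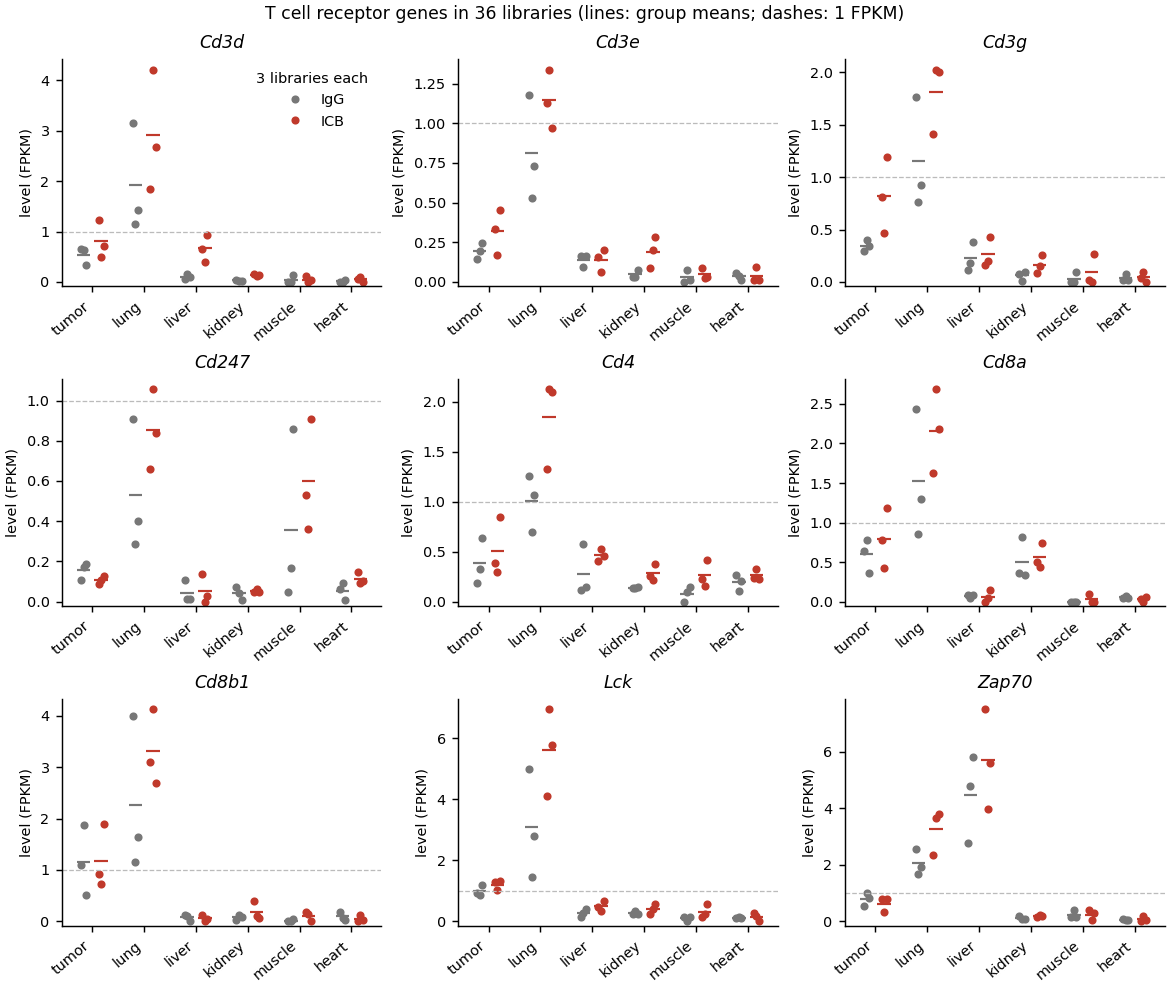
Level in FPKM (vertical axis, linear, own scale per gene) of the 9 genes in 6 tissues, with 1 point per library, IgG in grey, ICB in red and lines at the means of 3 libraries. Lung is highest for 8 genes and liver for Zap70, and most kidney, muscle and heart points lie well under the dashed line at 1 FPKM.

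To order the tissues, log2(FPKM + 1) of all 36 libraries was fitted with limma and tissues were compared over both treatments, for genes that reached 1 FPKM in 3 or more of the 6 libraries of any tissue. Cd247 missed that filter in every tissue and was compared only in the fit with no filter. Differences on this scale understate the change of low genes. Of the 8 genes that passed, 5 (Cd3d, Cd3e, Cd3g, Cd4 and Cd8a) passed through lung alone. The counts, and the lung to tumor steps of these genes where given, are therefore from the fit with no filter. There, at an adjusted p under 0.05, lung was above tumor for 9 of 9 genes, where 37.5% of all 18760 genes were called in that direction. It was above kidney for 9 of 9 (all genes, 36.7%), above heart for 9 of 9 (40.2%), above liver for 8 of 9 (41.3%) and above muscle for 8 of 9 (42.8%). Zap70 was the exception in liver and Cd247 in muscle. Every lung library was above every tumor library for 4 of 9 genes, Cd3e, Cd247, Lck and Zap70, and for 30.5% of all genes. The scale matters for the organs. After rescaling every library to the same FPKM sum (a TPM scale), lung was above liver for 76.3% of the 16123 genes that passed the filter, above heart for 72.2%, above muscle for 69.4% and above kidney for 55.1%. The median log2 difference of lung minus liver was then 1.29. Lung against tumor was less affected, with a median over all genes of -0.13 and 34.2% higher in lung. Mean TPM was highest in lung for 9 of 9 genes, Zap70 included.

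**Figure D2:**
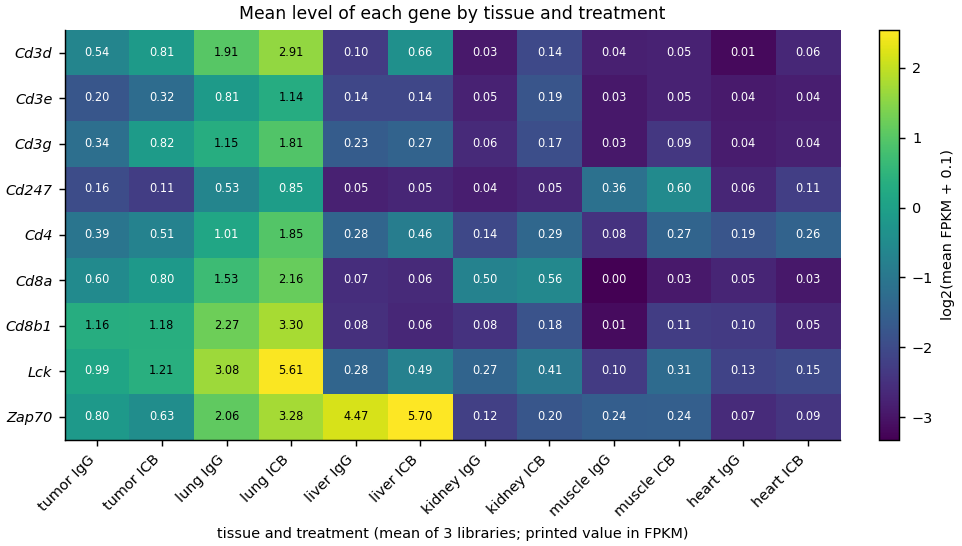
Mean FPKM of 3 libraries for each gene (rows) in each tissue and treatment (columns), printed in the cells and coloured by log2(mean FPKM + 0.1). The lung columns are bright for all rows. Outside lung and tumor the brightest cells are Zap70 in liver, Cd3d in liver ICB (0.66), Cd247 in muscle ICB (0.60) and Cd8a in kidney (0.50 and 0.56).

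The 3 CD3 genes lie together on chromosome 9. In GENCODE M21 (GRCm38), Cd3g spans chr9:44969572-44980431 on the minus strand, Cd3d chr9:44981786-44987339 on the plus strand and Cd3e chr9:44998740-45009627 on the minus strand. Cd3g and Cd3d run away from each other with 1354 bases between them, and 11400 bases separate Cd3d from Cd3e. Their promoter windows are shown because these 3 genes kept close company across the libraries. Each window holds 250 bases before and 50 bases from the transcript start, on the gene's strand, from RefSeq on GRCm38.p6. Capitals mark the E-box CAGNTG and the ETS core AGGAAG, each searched on both strands with no overlap between matches.

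Cd3g, chr9:44980382-44980681, minus strand: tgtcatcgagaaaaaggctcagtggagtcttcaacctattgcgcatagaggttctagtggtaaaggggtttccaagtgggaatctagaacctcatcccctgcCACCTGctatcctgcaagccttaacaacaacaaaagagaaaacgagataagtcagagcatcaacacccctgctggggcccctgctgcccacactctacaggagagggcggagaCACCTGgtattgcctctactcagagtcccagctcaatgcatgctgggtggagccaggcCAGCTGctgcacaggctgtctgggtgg

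Cd3d, chr9:44981536-44981835, plus strand: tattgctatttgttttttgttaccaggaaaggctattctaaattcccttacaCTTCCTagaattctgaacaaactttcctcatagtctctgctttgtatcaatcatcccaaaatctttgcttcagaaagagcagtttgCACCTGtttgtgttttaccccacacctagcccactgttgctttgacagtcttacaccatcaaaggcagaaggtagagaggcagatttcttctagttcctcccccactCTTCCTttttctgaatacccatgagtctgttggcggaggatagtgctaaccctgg

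Cd3e, chr9:45009562-45009861, minus strand: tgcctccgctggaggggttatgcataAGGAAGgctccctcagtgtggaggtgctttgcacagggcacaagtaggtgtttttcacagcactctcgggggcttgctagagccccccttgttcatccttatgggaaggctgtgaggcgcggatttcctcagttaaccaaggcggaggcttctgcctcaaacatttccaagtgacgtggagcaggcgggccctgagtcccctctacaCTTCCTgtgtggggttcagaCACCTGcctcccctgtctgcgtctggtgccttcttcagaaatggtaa

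An E-box was found in 3 of these 3 windows, and in 51.4% of all 32851 windows of this length. Cd3g held 3 E-boxes and no ETS core, while Cd3d and Cd3e each held 1 E-box and 2 ETS cores, a core found in 35.4% of all windows. RefSeq windows were matched for 7 of the 9 genes, 10 windows in all, and 9 of the 10 held an E-box and 7 an ETS core. These matches describe the letters in the windows and say nothing on binding.

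Cd3d, a chain that pairs with Cd3e, was at 2.41 ± 1.16 FPKM in lung (SD, n = 6), with its libraries running from 1.15 through a median of 2.26 to 4.21. Tumor followed at 0.672 ± 0.301 and liver at 0.383 ± 0.352, and kidney (0.0879), muscle (0.0461) and heart (0.0333) were near 0. The lung and tumor libraries overlapped only at the edge, where the highest tumor library (1.22) passed the lowest of lung. The log2 difference with no filter was 0.98 ± 0.13 (SE, adjusted p = 7.55e-08). The steps from tumor to liver (0.29 ± 0.13, adjusted p = 0.0411) and from liver to kidney (0.31 ± 0.13, adjusted p = 0.0357) also passed, but neither was stable. The first gave an adjusted p of 0.0684 under median-of-ratios scaling, and the second 0.720 in IgG libraries alone and 0.242 on the TPM scale. The first also missed the threshold without any 1 of 7 libraries: tumor IgG replicate 1 or 2, tumor ICB replicate 1, liver IgG replicate 1 or 3, or liver ICB replicate 1 or 2 (adjusted p up to 0.145). The second missed it without any 1 of 9: kidney IgG replicate 1, 2 or 3, kidney ICB replicate 2 or 3, liver IgG replicate 2 or 3, or liver ICB replicate 1 or 3 (up to 0.105). Kidney, muscle and heart did not differ beyond their spread.

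Cd3e, the chain most antibodies to CD3 bind, was at 0.979 ± 0.30 FPKM in lung and ranged from 0.530 to 1.34. No tumor library came above 0.456, and the lung and tumor libraries did not overlap (log2 difference with no filter 0.64 ± 0.06, adjusted p = 3.42e-10). Below tumor (0.259 ± 0.117), no neighbouring tissues passed: liver was at 0.139, kidney at 0.119, muscle at 0.0395 and heart at 0.0375 FPKM. Tumor against liver missed the threshold with an adjusted p of 0.0554 and passed without the filter at 0.0477.

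Cd3g, the other partner of Cd3e, was at 1.48 ± 0.545 FPKM in lung (0.758 to 2.02) and at 0.583 ± 0.351 in tumor (0.295 to 1.19). The step from lung to tumor with no filter was 0.64 ± 0.10 (adjusted p = 7.33e-07) although libraries overlapped. The step from tumor to liver, at 0.246 ± 0.127, was 0.33 ± 0.10 with an adjusted p of 0.00362. It missed the threshold in IgG libraries alone (0.14, adjusted p = 0.399) and with limma-voom on recovered reads (adjusted p = 0.0761). Kidney (0.114), muscle (0.0625) and heart (0.0403) did not differ from their neighbours.

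The FPKM of the 3 chains were unequal, and the exon length used for scaling bears on that. FPKM was divided by the union of all annotated exons, which matched the length implied by the values for 9 of 9 genes. For Cd3e that union is 4080 bases against 1462 in its coding mRNA, and for Cd3g it is 3269 against 1023, while Cd3d has 1815 against 1617. Per kilobase of coding mRNA, lung means were 2.70 ± 1.30 for Cd3d, 2.73 ± 0.838 for Cd3e and 4.73 ± 1.74 for Cd3g (SD, n = 6). In tumor they were 0.754, 0.724 and 1.86 on the same scale. By FPKM Cd3d was above Cd3e in lung, and per coding mRNA both lay within their spread of each other, with Cd3g above them.

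Cd247, the zeta chain with the most tyrosine motifs of the complex, was a poorer follower of the other genes. It was at 0.692 ± 0.299 FPKM in lung (0.288 to 1.06), and second came skeletal muscle at 0.479 ± 0.355, not tumor at 0.132 ± 0.0407. The 6 muscle libraries were far apart: IgG gave 0.0488, 0.166 and 0.858 FPKM and ICB 0.531, 0.362 and 0.910, from 5 to 83 reads. Muscle against tumor passed in the fit with no filter (0.35 ± 0.10, adjusted p = 0.00245) and lung against muscle did not (0.21 ± 0.10, adjusted p = 0.0607). In the same muscle libraries Cd3d, Cd3e and Cd3g took between 0 and 15 reads each. Cd247 lies at chr1:165788681-165877277, and 3007 bases, 56.4% of its annotated exons, are also exons of Pou2f1, a widely expressed transcription factor gene on the other strand. Strandedness is not given in the sources used here, and without it reads of the 2 genes cannot be told apart in that stretch. Pou2f1 itself was at 1.02 ± 0.232 FPKM in muscle, within the range of the other tissues, which had means of 0.647 in liver to 1.60 in tumor. Its part in the muscle values of Cd247 was not tested.

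Cd4, the coreceptor of helper and regulatory T cells, was at 1.43 ± 0.573 FPKM in lung, 0.448 ± 0.247 in tumor and 0.371 ± 0.195 in liver. Heart (0.228), kidney (0.213) and muscle (0.174) followed. Only the step from lung to tumor passed (0.73 ± 0.10 with no filter, adjusted p = 1.18e-07), and the other 4 neighbouring pairs did not differ beyond their spread. Outside lung and tumor Cd4 was better covered than the CD3 genes, with 97 reads over the 6 heart libraries against 6 for Cd3d, 16 for Cd3e and 14 for Cd3g.

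Cd8a, the CD8 chain that can pair with itself, was at 1.85 ± 0.705 FPKM in lung, 0.698 ± 0.294 in tumor and 0.534 ± 0.201 in kidney. Kidney was unlike liver, muscle and heart, where means were 0.0662, 0.0165 and 0.042 FPKM. Every kidney library (0.338 to 0.814 FPKM, 27 to 65 reads) was above every liver library (0 to 0.142), with a log2 difference of 0.52 ± 0.11 and an adjusted p of 2.32e-04. Tumor and kidney did not differ beyond their spread (0.14 ± 0.11, adjusted p = 0.271). Cd8b1, the second chain of the CD8 heterodimer of most cytotoxic T cells, did not share this. It was at 2.79 ± 1.21 FPKM in lung and 1.17 ± 0.584 in tumor, and at 0.133 ± 0.131 in kidney, where single libraries held 1 to 16 reads. Every tumor library was above every kidney library for Cd8b1 (0.90 ± 0.15, adjusted p = 4.73e-06). Cd8b1 lies at chr6:71322788-71337494 and Cd8a at chr6:71373427-71379173, with 35932 bases between them, both on the plus strand.

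Lck, the kinase that starts the cascade, had the most lung reads of the 9 genes, 2531 over 6 libraries. It was at 4.34 ± 2.0 FPKM in lung (1.47 to 6.95), 1.10 ± 0.189 in tumor (0.856 to 1.31) and 0.386 ± 0.187 in liver (0.130 to 0.682). These 3 sets of libraries did not overlap, and both steps passed: lung to tumor by 1.25 ± 0.14 (adjusted p = 1.97e-09) and tumor to liver by 0.61 ± 0.14 (adjusted p = 2.13e-04). Kidney (0.337), muscle (0.206) and heart (0.136) did not differ from their neighbours in the order.

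Zap70, the kinase recruited to the phosphorylated chains, departed from the others in liver. It was at 5.09 ± 1.63 FPKM there: the IgG libraries gave 2.79, 4.78 and 5.84 and the ICB libraries 7.52, 3.98 and 5.61, from 88 to 248 reads. Lung followed at 2.67 ± 0.885 (1.68 to 3.80), then tumor at 0.715 ± 0.244, muscle at 0.241, kidney at 0.157 and heart at 0.0769. Liver was above lung on the deposited scale (0.72 ± 0.13, adjusted p = 1.57e-05). On the TPM scale that order turned, with 11.3 ± 4.52 TPM in lung and 6.68 ± 1.80 in liver, and a log2 difference of -0.64 for liver minus lung (adjusted p = 0.00154). The median of all genes on that scale was 1.29 higher in lung, so the difference of Zap70 was below that of the median gene. In the same liver libraries Cd3d took 1 to 23 reads, Cd3e 3 to 11, Cd3g 4 to 19 and Cd247 0 to 8. The receptor chains that Zap70 binds thus did not share its liver level, and neither did Lck, with 4 to 27 reads. The window before its first start is shown because it holds a motif that few windows have, the palindrome TGACGTCA, in 1.79% of all windows and in 1 of the 10 of these genes. Capitals mark it, 2 E-boxes and 1 ETS core.

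Zap70, chr1:36761548-36761847, plus strand: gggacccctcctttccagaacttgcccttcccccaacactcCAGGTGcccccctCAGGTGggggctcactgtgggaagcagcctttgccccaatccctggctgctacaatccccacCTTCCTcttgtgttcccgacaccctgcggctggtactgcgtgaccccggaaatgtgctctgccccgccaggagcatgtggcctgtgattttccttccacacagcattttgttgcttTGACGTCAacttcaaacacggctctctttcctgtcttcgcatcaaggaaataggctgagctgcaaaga

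The main question of the design was what ICB changed. No gene of the receptor passed in any tissue where it was tested. With the filter at 1 FPKM, limma tested 8 of the 9 genes in lung, 2 in tumor and 1 in liver. It tested 0 in kidney, muscle and heart. In lung, the tissue with the most signal, all 9 genes had a higher mean with ICB, with a median log2 difference of 0.44 against -0.0044 over all genes. Of all genes above 0 in a tissue, 48.1% had a positive log2 difference in lung, 49.1% in kidney and 47.8% in tumor. The share was 49.6% in liver, 52.9% in muscle and 51.4% in heart. The limma test within lung called 0 of the 8 tested genes and 0% of 12747 genes. At an unadjusted p under 0.05 stood 3 of the 8 genes and 4.35% of all genes. Limma-voom on recovered reads, which reached all 9, also called 0, with 3 at an unadjusted p under 0.05 (all genes, 4.06%).

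Lck was at 4.98, 1.47 and 2.79 FPKM in the IgG lungs and at 4.11, 6.95 and 5.76 in the ICB lungs, a log2 difference of 0.77 ± 0.32 (SE, adjusted p = 0.988). Cd4 was at 1.26, 0.701 and 1.07 against 1.33, 2.13 and 2.1, a difference of 0.50 ± 0.17 (adjusted p = 0.988). Cd4 was the 1 gene of 9 with every ICB lung above every IgG lung, a separation seen for 4.56% of all genes. Zap70 was at 2.57, 1.68 and 1.93 against 2.36, 3.68 and 3.80 FPKM, a difference of 0.48 ± 0.18 with the same adjusted p. These adjusted p depended on the estimate of spread. With limma in 1 fit of 36 libraries they were 0.0717 for Lck, 0.140 for Cd4 and 0.445 for Zap70, and none was called.

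The CD3 genes had the same layout. Cd3d was at 3.16, 1.15 and 1.42 FPKM with IgG and at 1.85, 4.21 and 2.67 with ICB (0.44 ± 0.30). Cd3g was at 1.76, 0.758 and 0.923 against 1.41, 2.02 and 2.0 (0.41 ± 0.19), and Cd3e at 1.18, 0.530 and 0.733 against 1.13, 1.34 and 0.971 (0.25 ± 0.16). For each of these the first IgG lung lay inside the range of the ICB lungs. Cd8a (0.36 ± 0.24) and Cd8b1 (0.48 ± 0.30) overlapped likewise, and Cd247, at 0.906, 0.288 and 0.403 against 0.658, 1.06 and 0.841 FPKM, was too low for the filter.

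The lung libraries differed as wholes. IgG replicate 2 was the lowest of the 6 for 9 of 9 genes, and ICB replicate 2 was the highest for 8 of 9. Within lung, each gene followed the mean of the other 8 with a Pearson correlation of deviations between 0.832 (Zap70) and 0.999 (Cd8a) over 6 libraries, given as a description. Leaving out IgG replicate 2 brought the difference of Lck from 0.77 to 0.45, and leaving out IgG replicate 1 raised it to 1.09. For Cd3d, the range over single libraries left out was 0.21 to 0.73. Markers of other cells differed between the same libraries. Of 10 B cell markers, 9 were tested and 9 were higher with ICB in mean (median 0.54), and their summed level was 29.5 to 93.3 FPKM with IgG and 65.0 to 85.0 with ICB. NK cell markers were higher for 9 of 10 tested and summed to 23.2 to 100 against 56.0 to 106 FPKM. Erythroid genes were lower for 5 of 5 (median -2.45), at 1577 to 15636 FPKM with IgG and at most 2113 with ICB. The 6 genes that define lung epithelium, surfactant genes among them, were also lower for 6 of 6 (median -0.29), at 34101 to 55065 against 20244 to 31287. Macrophage and monocyte markers were higher for 12 of 14 tested (median 0.46), while their sums overlapped at 2347 to 3066 FPKM with IgG and 2176 to 2695 with ICB. None of these 5 lists had a gene at 0 in all lung libraries. Their part in the lung values was not tested.

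**Figure D3:**
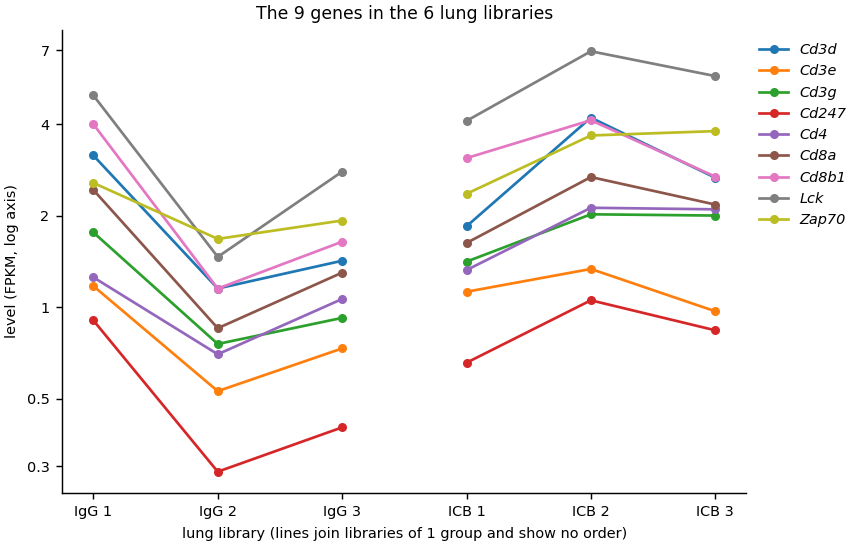
Level in FPKM (log axis) of the 9 genes in each lung library, with lines joining the 3 libraries of a group. IgG replicate 2 is lowest for 9 of 9 genes, and IgG replicate 1 reaches into the range of the ICB libraries for each gene but Cd4.

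In kidney all 9 genes again had a higher mean with ICB, at very low levels, and none reached the filter. Cd4 took 13, 12 and 13 reads in the IgG kidneys and 29, 24 and 34 in the ICB kidneys, and Cd3e 3, 3 and 7 against 10, 22 and 26. Cd3d took 2, 1 and 1 reads against 8, 6 and 6. These 3 of 9 genes had every ICB kidney above every IgG kidney in FPKM, against 4.8% of all genes and 7.24% of genes with a mean of 3 to 60 reads. Limma-voom tested 5 of the 9 genes and called 0 of them, as against 0.00648% of all genes. Its log2 difference was 1.82 ± 0.62 for Cd3e and 0.95 ± 0.36 for Cd4, both with an adjusted p of 0.978. These 2 were the genes at an unadjusted p under 0.05, as 4.45% of all genes were. Leaving out single libraries gave 1.5 to 2.30 for Cd3e and 0.76 to 1.12 for Cd4, a check added after the data were seen.

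Cd8a, the gene of the 9 with most kidney reads, took 31, 65 and 27 with IgG and 50, 43 and 61 with ICB, and its groups overlapped (0.22 ± 0.38 by limma-voom, adjusted p = 0.984). Lck (0.49 ± 0.41) and Zap70 (0.78 ± 0.45) overlapped too. The receptor's own constant gene Trac, the best covered of the constant chains in kidney, was at 0.893 ± 0.245 FPKM with IgG and 1.34 ± 0.227 with ICB (0.31 ± 0.13, adjusted p = 0.992). Macrophage markers were higher with ICB for 11 of 11 tested, at a summed 84.7 to 92.2 FPKM against 97.9 to 208. Skeletal muscle genes summed to 4.12 to 7.07 against 8.98 to 13.7 FPKM and erythroid genes to 497 to 693 against 212 to 349. Of 15 macrophage markers 1 was at 0 in all kidney libraries, and in the other 2 lists none. What part these had in the kidney values was not tested.

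**Figure D4:**
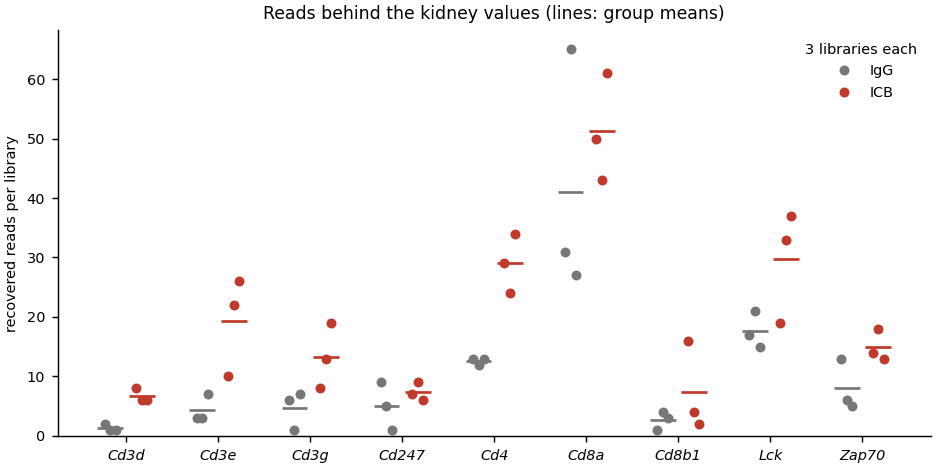
Reads recovered per kidney library (vertical axis, linear from 0) for the 9 genes, IgG in grey and ICB in red, with lines at the means of 3 libraries. Cd3d, Cd3e, Cd3g and Cd4 have all ICB points above all IgG points, although the groups of Cd3g overlap in FPKM. Cd8a has the most reads and overlapping groups.

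In the tumor, where the antibodies are meant to act, 7 genes had a higher mean with ICB and 2, Cd247 and Zap70, a lower one. Limma called 0 of the 2 tested genes and 0% of 11398 genes, with 0 of the 2 and 6.87% of all genes at an unadjusted p under 0.05. Lck was at 0.946, 0.856 and 1.18 FPKM with IgG and 1.29, 1.01 and 1.31 with ICB (0.15 ± 0.13, adjusted p = 0.841). Cd8b1 was at 1.10, 1.87 and 0.507 against 0.922, 0.728 and 1.89 (0.03 ± 0.29, adjusted p = 0.988), and its sign depended on single libraries: it was -0.21 without IgG replicate 3 and -0.19 without ICB replicate 3. Both groups thus covered the same range for this coreceptor.

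Cd3g was the 1 tumor gene of 9 with separate groups, a pattern 5.3% of all genes showed, at 0.295, 0.397 and 0.341 FPKM against 0.810, 0.463 and 1.19. By limma-voom its log2 difference was 1.13 ± 0.43 (adjusted p = 0.744). Cd3d (0.647, 0.635 and 0.328 against 1.22, 0.491 and 0.712) and Cd3e (0.148, 0.198 and 0.248 against 0.335, 0.172 and 0.456) did not separate. The ICB replicate 2 tumor, with the high skeletal muscle genes, was the lowest ICB library for all 3 CD3 genes. Without that library, the limma difference of Lck was 0.21 and that of Cd8b1 0.18, neither called. Limma-voom called 0 of 9 tumor genes, with 1, Cd3g, at an unadjusted p under 0.05 (all genes, 6.62%).

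Liver gave 6 genes with a higher and 3 with a lower mean. Zap70, at the values given above, differed by 0.30 ± 0.28 (adjusted p = 0.999), with 0.06 to 0.50 over single libraries left out. It was the 1 gene tested there, and 3.37% of all genes had an unadjusted p under 0.05. Cd3d took 1, 4 and 2 reads with IgG and 13, 9 and 23 with ICB, and was the 1 gene of 9 with separate groups, against 4.02% of all genes. Cd3e took 20 reads against 21 over the 3 libraries of each group, and Cd3g 27 against 33, so the other CD3 genes did not share the difference of Cd3d. In the fit with no filter the adjusted p of Cd3d was 0.994. Limma-voom tested Cd4, Lck and Zap70 and called 0 of the 3, with 0 at an unadjusted p under 0.05 (all genes, 3.4%). Macrophage markers were higher in mean for 12 of 12 tested in liver, at a summed 476 to 826 FPKM with IgG and 721 to 2221 with ICB, with 0 of 15 at 0 in all libraries. Their part in the liver values was not tested.

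In muscle all 9 mean FPKM were higher with ICB, although Zap70, at 0.239 ± 0.141 against 0.242 ± 0.184, had a log2 difference of -0.0014 ± 0.13 (SE), and of -0.28 ± 0.93 by limma-voom. Among the 9, Cd4 alone had separate groups (0, 6 and 10 reads against 18, 11 and 29), against 5.87% of all genes. Macrophage markers in muscle were higher for 11 of 12 tested (median 0.85), at a summed 162 to 357 FPKM with IgG and 276 to 765 with ICB. Adipocyte genes were higher for 1 of 9 (median -0.96), at 975 to 2241 against 604 to 1117, and erythroid genes for 0 of 5 (median -1.18), at 978 to 1517 against 284 to 877. None of these 3 lists had a gene at 0 in all muscle libraries. Their part in the muscle values was not tested.

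In heart 7 means were higher and Cd8a and Cd8b1 lower. Cd247 alone had separate groups in FPKM (all genes, 4.61%), although its reads, at 6, 10 and 1 against 13, 8 and 10, overlapped. Erythroid genes in heart were higher for 0 of 5 (median -1.54), at 749 to 3884 against 414 to 549 FPKM, none of them at 0, and their part was not tested. Limma-voom called 0 of 3 genes in muscle and 0 of 2 in heart, with 0 at an unadjusted p under 0.05 in either (all genes, 5.11% and 4.61%). In no tissue did any of the 9 genes have every ICB library below every IgG library. That pattern was shown by 6.86% of all tumor genes, 4.82% of kidney, 4.22% of lung, 3.37% of liver, 4.58% of muscle and 4.64% of heart genes.

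**Figure D5:**
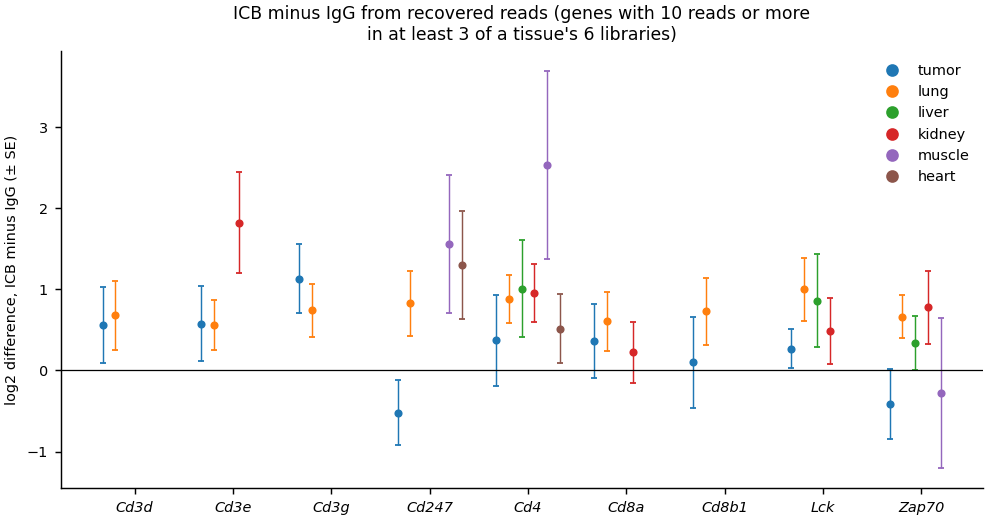
Log2 difference of ICB minus IgG from limma-voom on recovered reads (vertical axis, ± SE), for each gene with at least 10 reads in at least 3 of a tissue's 6 libraries, coloured by tissue. All 9 lung points and all 5 kidney points lie above 0, tumor points lie on both sides, and no point passed the test.

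Averaged over the 5 organs, 15 ICB against 15 IgG libraries, all 8 tested genes had a positive difference and 0 were called, where 0.434% of 16123 genes were. An unadjusted p under 0.05 was reached by 6 of the 8 and by 9.27% of all genes. Cd4 came nearest at 0.24 ± 0.06 (adjusted p = 0.0803), then Lck at 0.28 ± 0.09 (0.155) and Cd3d at 0.25 ± 0.08 (0.194). The call depended on the setting. Cd4 passed on the TPM scale (0.43, adjusted p = 0.0427) and without heart (0.28, adjusted p = 0.0464), and Cd3d passed with a pseudocount of 0.1 (0.79, adjusted p = 0.0308). Without lung IgG replicate 1, the high IgG lung, Cd3d, Cd4 and Lck passed, and without liver IgG replicate 2 Cd4 did. Calls over all genes moved as well, to between 31 and 296 with single libraries left out, against 70 in the main fit. The TPM scale also called more genes, as given at the end. Without lung altogether the difference of Cd4 was 0.17 (adjusted p = 0.477). With limma-voom 0 of 9 were called, Cd3d at 1.35 ± 0.38 (adjusted p = 0.176) and Cd4 at 1.17 ± 0.32 (adjusted p = 0.156). All these p-values took the libraries as independent, although the 10 numbers in the library titles recur across tissues. With the title number as a block, the organ average called none of the receptor genes.

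Whether the ICB difference itself varied between tissues was tested with an F test over the 6 tissues in the main fit of 36 libraries. None of the 8 genes was called, against 0.0868% of all genes, and 0 of the 8 had an unadjusted p under 0.05 (all genes, 6.2%). Their F values ran from 0.800 (Cd8a) to 1.84 (Lck), with adjusted p of 0.992 or more. Limma-voom called 0 of 9, with 0 at an unadjusted p under 0.05, and its shares over all genes are not reported here. The separate pictures in lung, kidney and tumor are therefore not shown to differ from each other.

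Ratios between genes within a library were taken as log2 of FPKM + 0.1. The added 0.1 pulls ratios of low values toward 0, and with it a library's scaling does not fully cancel. Cd4 to Cd8a was -0.34 ± 0.29 in lung, -0.58 ± 0.72 in tumor and -1.01 ± 0.47 in kidney (SD, n = 6). Cd8b1 to Cd8a was 0.53 ± 0.24 in lung and 0.62 ± 0.32 in tumor. In 10 comparisons of ICB with IgG the exact permutation test (two-sided), which cannot go below 0.1 with 3 against 3, gave an adjusted p of 0.667 or more. The 1 ratio with separate groups was Cd247 to Cd3e in tumor, at -0.21 ± 0.08 with IgG and -0.96 ± 0.49 with ICB (exact p = 0.1).

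The wider pathway gave no call either. Of 31 other genes of proximal receptor signaling in the table, limma tested 22 in lung, and 20 had a positive difference with a median of 0.30. The 3 most highly expressed over all libraries were Csk, which phosphorylates the inhibitory tail tyrosine of Lck, the diacylglycerol kinase Dgkz and the phosphatase Ptpn6. Csk was at 18.6 ± 2.43 FPKM in IgG lungs and 24.1 ± 1.75 in ICB lungs (0.37 ± 0.15), and Ptpn6 at 22.1 ± 8.01 and 34.0 ± 6.84 (0.63 ± 0.27), both with an adjusted p of 0.988. Dgkz differed by 0.20 ± 0.15. In tumor 8 of 16 tested genes of this list had a positive difference, with a median of -0.03, and in kidney it was 10 of 13 and in liver 11 of 15. These genes are not specific to T cells.

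T cell surface and costimulatory genes were positive for 10 of 10 tested in lung (median 0.38). Among them Thy1 was at 5.49 ± 1.16 FPKM with IgG and 7.72 ± 2.01 with ICB, and the chemokine receptor Ccr7 at 3.27 ± 1.73 and 4.35 ± 0.674. In tumor 3 of 4 were positive, and Thy1, also made by fibroblasts, was at 8.73 ± 2.36 with IgG and 6.39 ± 0.621 with ICB (-0.37 ± 0.17, adjusted p = 0.722). Transcription factors of the T lineage were positive for 7 of 8 tested in lung (median 0.39) and 2 of 5 in tumor. Ets1 differed by 0.37 in lung and Zbtb7b, which directs the CD4 lineage, by 0.21. The kinases related to Lck and Zap70, the SYK and SRC families, were positive for 6 of 8 in lung and 5 of 7 in liver (median 0.58). In liver Lyn was at 11.5 ± 1.26 FPKM with IgG and 16.4 ± 3.83 with ICB (0.46 ± 0.20, adjusted p = 0.999).

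The constant chains of the receptor itself, which the CD3 genes accompany, were in lung at 9.51 ± 4.94 FPKM with IgG and 13.7 ± 3.73 with ICB for Trbc2 (0.55 ± 0.32) and at 4.65 ± 2.87 and 6.46 ± 2.25 for Trac (0.47 ± 0.35). Trbc1 differed by 0.33 ± 0.50, and all 3 had an adjusted p of 0.988. In liver Trbc2 was at 0.482 ± 0.109 against 2.31 ± 0.883 (1.12 ± 0.23, adjusted p = 0.999), while Trbc1 was at 0.603 ± 0.431 against 0.985 ± 0.458. Trbc1 and Trbc2 are near-identical copies, so how reads were split between them is uncertain. Across all lists and tissues 0 genes were called.

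Across the 36 libraries, 10 genes outside the 9 had the pattern most like the mean log2(FPKM + 1) of the 9, among 16115 genes compared. In order they were Ptprc (Pearson correlation 0.971), Trbc2 (0.970), Trbc1 (0.965), Rasal3, Ltb, Ms4a4b, Gimap7, Ikzf1, Cd5 and Cd79a (0.952). Libraries of a tissue share most of their expression, so these values are a description. Of the 9 themselves, Cd3d followed the mean of the other 8 at 0.966, Cd3g at 0.965, Lck at 0.965 and Cd3e at 0.961. Cd247 (0.586) and Zap70 (0.461) followed least.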

How the data were processed

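The submitters' processing notes name HISAT2 2.1.0, edgeR and mm10; the sources used here give no counter, annotation or strandedness. The deposited values are FPKM by the authors, 18781 rows in 36 libraries. Whole reads (tolerance 0.001) were recovered for 18781 rows, with library totals of 19005189 to 25512980 and scaling factors of 0.532 to 1.60. The 15 rows without a name (0.0834% to 0.374% of reads) and 3 symbols on 2 rows were left out, which kept 18760 genes. No library duplicated another of its group (36 pairs).

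Within each tissue 3 ICB and 3 IgG libraries were compared with limma 3.58.1 (R 4.3.3) on log2(FPKM + 1), two-sided and with a trend of variance on level. Genes needed 1 FPKM in 3 or more of the 6 libraries, with Benjamini-Hochberg adjustment over all genes tested and a threshold of 0.05. A fit of 36 libraries with 12 group means gave the organ average, the F test between tissues and the tissue pairs. Alternatives were a pseudocount of 0.1, no filter, TPM scale, median-of-ratios scaling, no trend, 1 fit of 36 libraries, limma-voom on recovered reads (at least 10 in 3 libraries), IgG libraries only, the title number as a block, and omission of each organ or library. Its limma-voom version was chosen after seeing the data. The code was tested on simulated data.

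The 9 genes, the lists and the tests were chosen with earlier results of these data known. Named were all 9 genes, the 3 highest of each pathway list, the 2 highest of marker lists, and the 10 genes most like the 9. Marker lists are mostly given by their summed level, and some genes the rule names are not reported here. Promoter windows come from RefSeq (GRCm38.p6), and positions from GENCODE M21. Python 3.11.15, numpy 2.4.6, pandas 2.3.3, scipy 1.17.1 and matplotlib 3.10.9 were used.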

Additional observations from a re-analysis of the deposited data

How the results depend on the processing

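Over 74 results and 2203 alternatives, 2114 were unchanged. For differences this meant the same direction and side of the threshold, and for F values the same side. For counts it meant equal or within 1.5 times, and for ratios a shift under the larger group SD. Of the 2114, 1619 were runs with 1 library left out. For tissue pairs, many of those libraries belonged to neither tissue compared. Such runs could hardly change a result, so the total overstates how stable the results are. Of the other alternatives, 58 counts or ratios moved, 21 differences lost and 7 gained the threshold, and 3 reversed. The reversals were Cd8b1 in tumor without IgG replicate 3 (-0.21) and without ICB replicate 3 (-0.19), within a range of -0.21 to 0.26 over single libraries left out, and Zap70 in liver against lung on the TPM scale (-0.64). In the organ average 0 of the 8 genes were called, but 1 without heart, 1 with a pseudocount of 0.1 and 1 on the TPM scale, and 0 to 3 with single libraries left out. Within tissues, 0 genes of the receptor were called under every alternative run. Over all genes, 1 fit of 36 libraries called 69 genes for tumor, 55 for lung, 74 for liver and 91 for muscle, against 0 each, 12 for kidney against 2, and 3 for heart against 0. The organ average called 70 genes, 252 on the TPM scale, 16 by limma-voom, and 31 to 296 with single libraries left out. Rescaling to a common sum moved the median ICB difference of all genes tested in lung to 0.20. The cause of these shifts was not tested. The 10 numbers in the titles recur across tissues but not in both treatments. Same-numbered libraries had deviations correlated at -0.13 to 0.44, over 0.1 in 32 of 56 pairs. The labels do not say what the numbers stand for. The main fit took the libraries as independent, which these correlations do not settle. With the title number as a replicate block the organ average called 5 genes and the F test 27 against 14, with 0 of the receptor genes in either. Depth limits kidney, liver and muscle, where 8 of 9 genes had a median under 30 reads per library, and heart, where 9 did.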

Other observations

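After removing the 12 group means, the genes whose library-to-library deviations were most like those of the 9 receptor genes were Klra7 (Pearson correlation 0.828 over 36 libraries), Gbp8, Ms4a4b, Il1b, Trpm2, Il2rb, Klrd1, Gzma, H2-Ob and Gm16120 (0.795). Klra7, Klrd1 and Gzma belong to the NK cell list, and Gzma and Klrd1 are also made by cytotoxic T cells. The correlations are a description, since libraries share scaling and tissue. In tumor, 0 of 6 tested NK cell markers had a positive ICB difference (median -0.20). Prf1, the pore protein of killer cells, was at 26.6 ± 16.1 FPKM with IgG and 10.1 ± 6.24 with ICB (SD, n = 3 each; limma log2 difference -1.31 ± 0.52, adjusted p = 0.707). Klra4 was at 9.16 ± 4.74 against 8.31 ± 2.06 FPKM.

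Among genes of dividing cells in lung, Mki67, a proliferation marker, was at 1.12 ± 0.301 FPKM with IgG and 2.57 ± 0.366 with ICB (0.75 ± 0.15, limma adjusted p = 0.898). The summed level of the 6 cell cycle genes was 2.16 to 3.73 FPKM in IgG lungs and 4.84 to 7.24 in ICB lungs, with separate groups. It was not tested which cells these transcripts came from.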
